A study of Mus musculus with 59 samples.

Results

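The comparison set 7 cortex libraries labelled double het (Mrpl40 -/+,Slc25a1 -/+) against 7 cortex libraries labelled Mrpl40 het (Mrpl40 -/+,Slc25a1 +/+), 14 of the 59 libraries of the series. Both groups are labelled heterozygous for Mrpl40, so the labels differ in Slc25a1 alone, and the contrast asks what the loss of 1 Slc25a1 copy adds to that background. Each library came from the cortex of a different male mouse with its own animal number, and the sources used here do not give age, litter, strain or how the alleles were made. RNA was captured on oligo-dT beads and read from both ends on a directional library. Cortex of Mrpl40 +/+,Slc25a1 -/+ (Slc25a1 het, 7 libraries), wild-type cortex (9 libraries) and hippocampus of the same 14 animals were used for values set beside the comparison.

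Both genes lie in the mouse segment that corresponds to the human 22q11.2 deletion. Slc25a1 encodes the citrate carrier of the inner mitochondrial membrane, which exports citrate to the cytosol, where it yields acetyl-CoA for fatty acid and cholesterol synthesis. Mrpl40 encodes a large-subunit protein of the mitochondrial ribosome, which makes the respiratory chain subunits encoded by mitochondrial DNA. Loss of 1 copy of a gene usually lowers its mRNA, so the level of each targeted gene also serves as a check of the labels.

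Slc25a1 (ENSMUSG00000003528, chr16:17925223-17928219, minus strand) was measured at 24.5, 22.1, 23.4, 21.8, 21.6, 21.8 and 22.3 CPM (the count scaled to a fixed library size) in Mrpl40 het libraries 1 to 7. In the libraries labelled double het it stood at 11.4, 11.0, 12.0, 10.6, 21.6, 20.8 and 11.0 CPM. Libraries 5 and 6 labelled double het therefore lay at the level of the Mrpl40 het libraries, against their label, and the other 5 lay near a 2-fold lower level. The log2 difference over all 7 was -0.67 ± 0.21 (SE), with an unadjusted p of 0.00353 and an adjusted p of 0.463 (edgeR quasi-likelihood test, Benjamini-Hochberg over all genes), so the targeted gene itself did not pass. Without libraries 5 and 6 it was -1.004 ± 0.21, which is no test of Slc25a1, since its own level picked those libraries. The same animals had high Slc25a1 in hippocampus, where the libraries labelled double het ranged from 11.3 to 27.7 CPM and Mrpl40 het from 23.3 to 25.8 CPM. All results below follow the labels, and values without libraries 5 and 6 are given beside several of them. Mrpl40 het and double het denote the labels throughout.

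Mrpl40 (ENSMUSG00000022706, chr16:18872018-18876862, minus strand) has the same label in both groups. Its lowest, median and highest values were 15.3, 17.4 and 19.1 CPM in Mrpl40 het and 15.0, 17.4 and 19.2 CPM in libraries labelled double het. The groups overlapped over nearly their whole range, and the log2 difference was 0.0041 ± 0.065 (SE, adjusted p = 0.994), or 0.05 without libraries 5 and 6. Wild-type cortex stood at 17.7 ± 1.52 CPM (SD, n = 9), within the range of both groups. Against wild type, Mrpl40 het differed by -0.04 ± 0.061 (SE, adjusted p = 0.915) and double het by -0.04 ± 0.061 (adjusted p = 0.869). A lower Mrpl40 mRNA level was thus not seen in either group labelled Mrpl40 -/+.

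**Figure D1:**
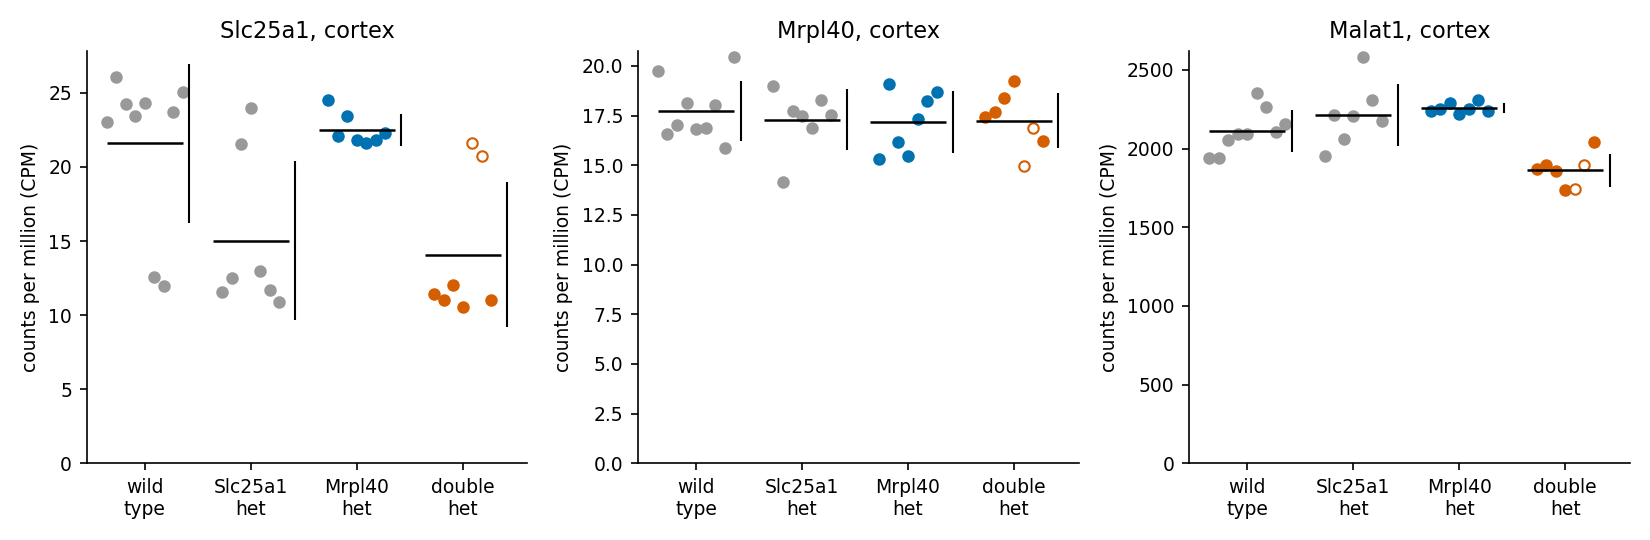
Levels of Slc25a1, Mrpl40 and Malat1 in CPM (linear axes from 0) in each of the 30 cortex libraries by labelled genotype; lines are means, vertical bars are SD, and open points are libraries 5 and 6 labelled double het. Slc25a1 in these 2 libraries (21.6 and 20.8 CPM) sits with Mrpl40 het, while Malat1 in all 7 libraries labelled double het (1734 to 2040 CPM) sits below all 7 Mrpl40 het libraries (2218 to 2308 CPM).

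Malat1 was the only gene of 20394 tested that passed an adjusted p of 0.05, 0.0049% of the genes, and it fell in the libraries labelled double het. Malat1 is an abundant nuclear long non-coding RNA found in nuclear speckles, where splicing factors gather. It does not end in a usual poly(A) tail: its 3′ end is cut by RNase P ahead of a tRNA-like small RNA and is protected by a triple helix between 2 U-rich stretches and an A-rich tract. That end is shown because the libraries were made by oligo-dT capture. It is the DNA-letter sequence of bases 6606 to 6691 of transcript ENSMUST00000172812.2 in GENCODE vM21, 5′ to 3′, with both U-rich stretches (T in the DNA letters) and the A-rich tract in capitals.
Malat1 3′ end: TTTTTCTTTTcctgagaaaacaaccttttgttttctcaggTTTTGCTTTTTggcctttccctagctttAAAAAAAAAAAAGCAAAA

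The tract holds a run of 12 A in the genome-encoded RNA. Malat1 (ENSMUSG00000092341, a long intergenic non-coding RNA at chr19:5795690-5802672, minus strand) was measured at 2240, 2253, 2291, 2218, 2250, 2308 and 2239 CPM in Mrpl40 het libraries 1 to 7. In libraries 1 to 7 labelled double het it stood at 1869, 1893, 1856, 1734, 1743, 1893 and 2040 CPM. The groups did not overlap, as was the case for 38 of 20394 genes (0.186%), and the Mrpl40 het libraries were close together (2257 ± 31.8 CPM, SD, n = 7, against 1861 ± 103 CPM, n = 7). The log2 fold change was -0.28 ± 0.046 (SE), with an adjusted p of 0.0105 by edgeR. The DESeq2 Wald test on the same counts gave 13 genes (2 higher, 11 lower), Malat1 among them with an adjusted p of 6.5e-05.

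The call for Malat1 depended on single libraries. Without library 4 labelled double het the change was -0.26 with an adjusted p of 0.0647, and without library 5 it was -0.26 with 0.0608. Without libraries 5 and 6 together, whose Slc25a1 level went against the label, it was -0.26 with an adjusted p of 0.0822. The size of the difference moved little, and both of those libraries (1743 and 1893 CPM) had Malat1 as low as the rest of their group although their Slc25a1 was high. Malat1 overlaps Gm37376 on the other strand, and the sources used here do not say whether reads were counted by strand.

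Set beside the other genotypes, the means of the 2 groups lay on either side of that of wild type (2110 CPM). Malat1 ranged from 1939 to 2352 CPM in wild-type cortex and from 1955 to 2580 CPM in Slc25a1 het cortex. Both ranges overlapped the libraries labelled double het and held all 7 Mrpl40 het libraries (2218 to 2308 CPM). The SD was 135 CPM in wild type and 198 CPM in Slc25a1 het, wider than the 31.8 CPM of Mrpl40 het. Against wild type, the Mrpl40 het libraries differed by 0.10 on the log2 scale (adjusted p = 0.688) and those labelled double het by -0.18 (adjusted p = 0.0785), in comparisons that share libraries with each other and with the main one. With both Mrpl40 copies present, Slc25a1 het minus wild type gave 0.07 ± 0.043 (SE). The difference between the effect of the Slc25a1 allele on the Mrpl40 -/+ background and on the Mrpl40 +/+ background was -0.35 ± 0.063 (SE) with an adjusted p of 0.0562, which misses the threshold. Over 34 alternative fits this difference ran from -0.38 to -0.31, with an adjusted p from 0.00133 to 0.224, and it passed in 8 of them. In that second pair of groups Slc25a1 also went against the label, in 2 of 9 wild-type and 2 of 7 Slc25a1 het libraries. These were wild-type libraries 6 and 7 (12.6 and 12.0 CPM) and Slc25a1 het libraries 3 and 4 (21.5 and 24.0 CPM).

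In hippocampus of the same animals Malat1 ranged from 2018 to 2622 CPM in Mrpl40 het and from 1915 to 2538 CPM in libraries labelled double het. These ranges overlapped, and the log2 difference was -0.05 ± 0.068 (SE, adjusted p = 0.961). The difference between the tissues, tested with the animal as a block, was -0.23 ± 0.081 (SE) with an adjusted p of 0.784, so a difference between cortex and hippocampus was not established for Malat1. In hippocampus 0 of 20162 genes passed with edgeR (943 had an unadjusted p under 0.05, 4.68%).

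Other abundant non-coding RNAs, chosen after their values were seen, were measured beside Malat1 and did not pass. Neat1, the scaffold of nuclear paraspeckles and the genomic neighbour of Malat1, differed by 0.02 ± 0.11 (SE, adjusted p = 0.978), or -0.07 without libraries 5 and 6. Meg3, an imprinted non-coding RNA of neurons, had -0.11 ± 0.048 (adjusted p = 0.672), and Kcnq1ot1, another imprinted one, had -0.11 ± 0.056 (adjusted p = 0.728). Miat had -0.05 and Snhg11 had -0.04. The log2 value for Malat1 was more than 2 times that of any of these 5.

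The scaling by TMM centres the fold changes over all genes, which fixes their median near 0. The log2 fold change was above 0 for 10168 genes (49.9%) and below 0 for 10226 (50.1%), with a median of -0.00023. An unadjusted p under 0.05 was found for 1416 genes (6.94%), of which 650 were higher (3.19%) and 766 lower (3.76%) in the libraries labelled double het. The groups did not overlap for 15 genes with higher values (0.0736%) and 23 with lower values (0.113%). Library totals ran from 26587179 to 32120906 counts in Mrpl40 het and from 22100013 to 29246582 in those labelled double het.

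The 12 genes with the smallest p were taken among those averaging at least 1 CPM, leaving out blank and predicted symbols (Gm, Rik). They held 4 higher and 8 lower genes, and 11 of them did not pass. Rpl30-ps9, a processed pseudogene of a ribosomal protein gene, had 2.52 to 3.77 CPM in Mrpl40 het and 1.36 to 2.39 CPM in libraries labelled double het, with no overlap. Its log2 difference was -0.55 ± 0.12 (SE, adjusted p = 0.135), and reads shared with Rpl30 and its other copies make it uncertain. Cracr2a, a calcium sensor that regulates store-operated calcium entry, had 4.93 to 5.78 CPM against 2.91 to 5.00 CPM, overlapping by 1 library on the double het side (-0.46 ± 0.098, adjusted p = 0.135). Pld5, an inactive member of the phospholipase D family, ranged from 4.97 to 10.3 CPM against 3.52 to 6.90 CPM (-0.58, adjusted p = 0.200). Against wild type, Mrpl40 het and double het differed by 0.24 and -0.31 for Rpl30-ps9, and by 0.07 and -0.39 for Cracr2a. For Pld5 they differed by 0.61 (adjusted p = 0.0669) and 0.03, so the libraries labelled double het stood at the wild-type level and Mrpl40 het stood above it.

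Pcnt, which encodes pericentrin of the centrosome, had a lowest, median and highest level of 53.2, 53.9 and 57.5 CPM in Mrpl40 het and 45.2, 47.5 and 53.0 CPM in libraries labelled double het. The groups did not overlap, and the difference was small (-0.17 ± 0.040, SE, adjusted p = 0.193). Slc38a3, a glutamine transporter of astrocytes, ranged from 60.4 to 71.2 CPM against 55.5 to 64.0 CPM (-0.20, adjusted p = 0.200). Flt3, a receptor tyrosine kinase, ranged from 14.0 to 17.8 CPM against 10.7 to 13.6 CPM with no overlap (-0.27, adjusted p = 0.271). Against wild type, Mrpl40 het and double het differed by 0.11 and -0.07 for Pcnt. They differed by -0.02 (edgeR adjusted p = 0.944) and -0.22 (adjusted p = 0.0262) for Slc38a3. For Flt3 they differed by 0.04 (adjusted p = 0.921) and -0.23 (adjusted p = 0.142). Slc38a3 thus passed for double het minus wild type, which shares libraries with the main comparison, where it did not pass.

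Among the genes with higher values, Ctxn3, a member of the cortexin family of small neuronal membrane proteins, had 2.79, 3.64, 1.80, 3.70, 2.95, 3.31 and 3.81 CPM in Mrpl40 het libraries 1 to 7. In libraries labelled double het it had 6.13, 5.86, 5.58, 6.89, 4.04, 2.59 and 5.45 CPM. Libraries 5 and 6, which also had high Slc25a1, were the 2 lowest of the 7, and only library 6 overlapped the Mrpl40 het range. The log2 difference was 0.72 ± 0.18 (SE, adjusted p = 0.271) over all 7 libraries and 0.92 with an adjusted p of 0.0155 without libraries 5 and 6. It was 0.84 with an adjusted p of 0.0431 without library 6 alone, the lowest of the 7 in Ctxn3. Wild type lay between the groups: against it Mrpl40 het differed by -0.36 (adjusted p = 0.698) and double het by 0.36 (adjusted p = 0.410). Slc25a1 het minus wild type gave 0.14. In hippocampus Ctxn3 was low, from 0.16 to 1.34 CPM in Mrpl40 het and from 0.45 to 2.05 CPM in libraries labelled double het. The groups overlapped there, and the difference was 1.10 ± 0.61 (SE, unadjusted p = 0.0799, adjusted p = 0.958).

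Atf6, a sensor of unfolded protein in the endoplasmic reticulum, ranged from 76.2 to 84.2 CPM in Mrpl40 het and from 83.8 to 108 CPM in libraries labelled double het (0.21 ± 0.048, SE, adjusted p = 0.193). The highest value was that of library 5 and the lowest that of library 3, the library that overlapped Mrpl40 het. Stra6, the membrane receptor that takes up retinol from its carrier protein, ranged from 2.21 to 4.13 CPM against 2.76 to 5.09 CPM (0.63, adjusted p = 0.271). Cds1, an enzyme of phosphatidylinositol synthesis, ranged from 165 to 178 CPM against 175 to 205 CPM (0.16, adjusted p = 0.287).

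**Figure D2:**
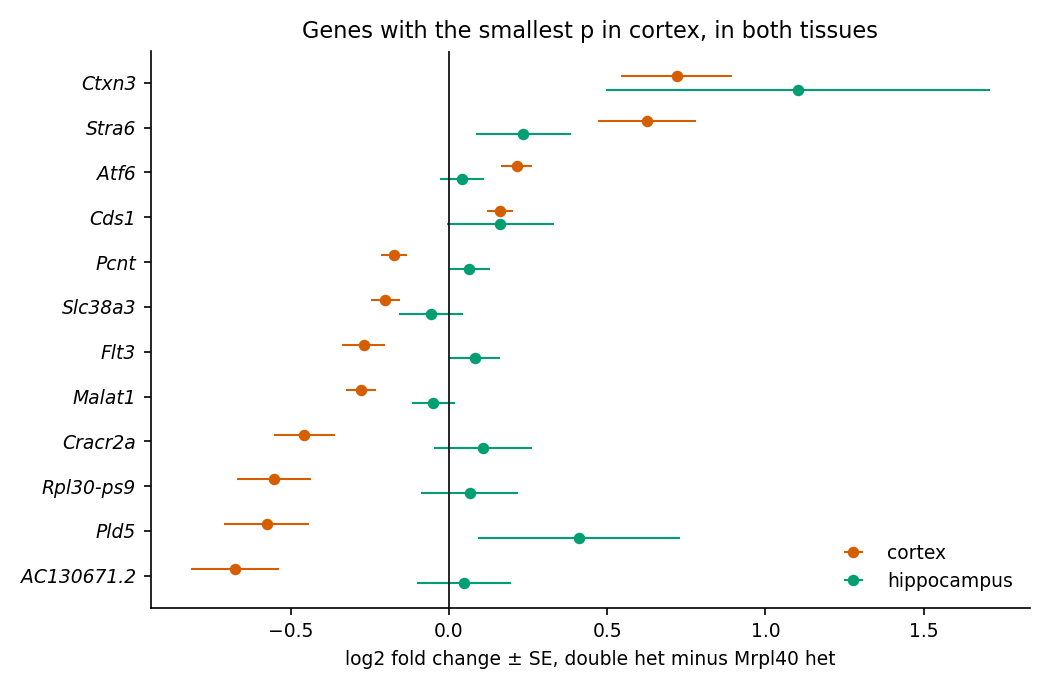
Log2 fold change ± SE of libraries labelled double het minus Mrpl40 het for the 12 named genes with the smallest p in cortex (orange), with the hippocampus value of the same genes (green); n = 7 animals per group in both tissues. The cortex values run from -0.68 (AC130671.2) to 0.72 (Ctxn3), Malat1 alone passed the test, and the hippocampus values of the 6 genes Flt3, Pcnt, Cracr2a, Rpl30-ps9, Pld5 and AC130671.2 lie above 0 where their cortex values lie below.

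AC130671.2, a gene model on the same strand within Ank, had 1.68 to 2.84 CPM in Mrpl40 het and 1.24 to 1.85 CPM in libraries labelled double het (-0.68 ± 0.14, SE, adjusted p = 0.135). It belongs to the GENCODE class TEC, which holds unspliced models with transcript evidence that still await experimental proof. Of the 25 genes with the smallest p, 18 were lower and 8 were TEC models, all 8 lower in the libraries labelled double het. Of 918 TEC models tested, 634 (69.1%) were below 0, with a median of -0.12 beside -0.00023 over all genes. An unadjusted p under 0.05 with a lower value was found for 116 (12.6%), against 3.76% of all genes, and with a higher value for 10 (1.09%), against 3.19%. This class was noticed after its values were seen and was given no test.

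The mean log2 CPM of the TEC models was 0.251 at the lowest, 0.282 at the median and 0.394 at the highest in Mrpl40 het libraries. In libraries labelled double het it was 0.134, 0.180 and 0.250. The ranges met without overlapping, and libraries 5 and 6 labelled double het, at 0.134 and 0.245, spanned nearly their group's whole range. As a share of all counts the class took 0.256% to 0.270% in Mrpl40 het and 0.238% to 0.253% in libraries labelled double het. Total counts also differed between the groups, with medians of 29228040 and 26399420, and the part of depth in this difference was not tested.

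The TEC models that lay within a protein-coding gene on the same strand (522) had a median of -0.18, and the other 396 had -0.03. Sense-intronic models, a related class that lies in introns, had 71 of 103 below 0 and a median of -0.10. Antisense models had 529 of 933 (56.7%) below 0 and a median of -0.05. Protein-coding genes (14949 tested, median 0.0020) and long intergenic RNAs (826 tested, median 0.0028) were balanced, and 64 of 97 bidirectional promoter RNAs were above 0 with a median of 0.06. In hippocampus the TEC median was 0.03, and for Slc25a1 het minus wild type in cortex it was 0.05.

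Low TEC levels were not restricted to the libraries labelled double het. Wild-type libraries 1 and 2 had 0.145 and 0.208, and Slc25a1 het library 1 had 0.196. These 3 libraries were also low in Malat1, at 1939, 1942 and 1955 CPM. The highest TEC mean of all 30 libraries (0.475, Slc25a1 het library 5) stood with the highest Malat1 (2580 CPM).

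**Figure D3:**
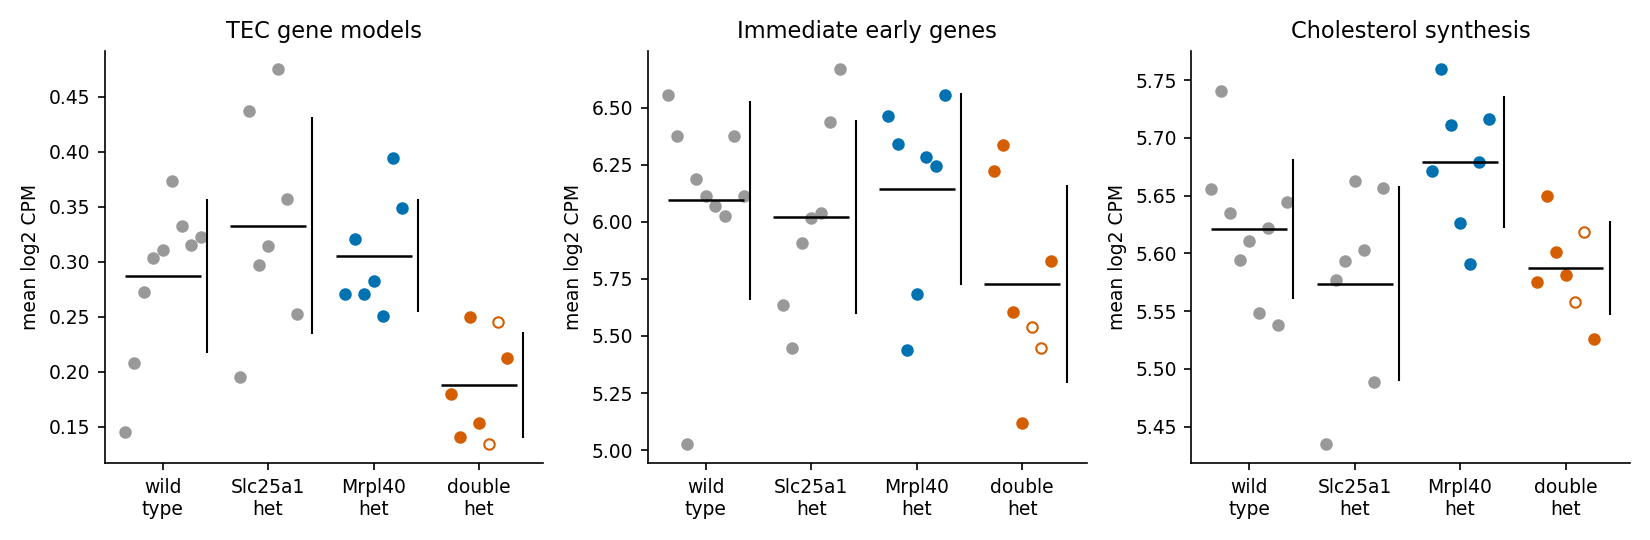
Mean log2 CPM of 918 TEC gene models, 28 immediate early genes and 23 cholesterol synthesis genes in each of the 30 cortex libraries by labelled genotype; lines are means, vertical bars are SD, and open points are libraries 5 and 6 labelled double het. The axes do not start at 0; the TEC means of libraries labelled double het (0.134 to 0.250) end just below those of Mrpl40 het (0.251 to 0.394), while both other groups of genes overlap.

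Gene lists were next described by the place of their members, with no list holding a gene that passed. The activity-dependent immediate early genes, which neurons induce within minutes of firing, had the lowest median. Of 28 measured members 24 were below 0, the median was -0.39, and 5 had an unadjusted p under 0.05 (Sik1, Arc, Nr4a2, Dusp1 and Per1, all lower), beside 3.76% of all genes. Many of these genes are induced through CREB, which binds the palindromic cyclic AMP response element. The first 6 letters of that element, TGACGT, were searched for on both strands in the 250 bases before the start of each gene in RefSeq (GRCm38.p6). They were present for 10 of 21 matched immediate early genes (47.6%), counting a gene if any of its promoters matched. Of all 32851 promoters, each counted by itself, 6.47% had them. The first share is of genes and the second of promoters, and a gene can have several, so the shares are not directly comparable. The stretch around the matches is shown for Fos, Npas4 and Egr4 because this list had the lowest median, 5′ to 3′ on the gene's strand with each match (or its reverse complement ACGTCA) in capitals.
Fos, chr12:85473794-85473859, plus strand: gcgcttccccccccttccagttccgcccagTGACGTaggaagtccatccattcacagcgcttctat
Npas4, chr19:4990105-4990181, minus strand: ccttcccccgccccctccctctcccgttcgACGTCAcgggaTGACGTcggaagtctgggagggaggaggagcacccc
Egr4, chr6:85513664-85513797, minus strand: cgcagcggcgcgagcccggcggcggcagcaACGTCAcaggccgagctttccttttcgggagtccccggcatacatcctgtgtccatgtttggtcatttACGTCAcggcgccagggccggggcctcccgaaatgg

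A match describes the letters only. Fos, the archetype of the class, was measured at 138, 116, 33.0, 42.9, 94.6, 84.3 and 108 CPM in Mrpl40 het libraries 1 to 7 and at 91.9, 104, 62.3, 20.0, 31.1, 26.6 and 47.6 CPM in libraries labelled double het. Libraries 4 to 6 labelled double het lay below the Mrpl40 het range, and libraries 1, 2, 3 and 7 lay within it. The log2 difference for Fos was -0.69 (unadjusted p = 0.081), and -0.44 with an adjusted p of 0.866 without libraries 5 and 6. Npas4 and Egr4 had -0.35 and -0.34.

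Junb, a partner of Fos in the AP-1 factor, followed the same libraries, with 122, 120, 88.1, 28.4, 42.2, 43.8 and 70.5 CPM in those labelled double het and 50.8 to 186 CPM in Mrpl40 het. Sik1, a kinase induced by cyclic AMP, ranged from 11.7 to 37.5 CPM in Mrpl40 het and from 7.97 to 25.8 CPM in libraries labelled double het (-0.86 ± 0.36, SE, adjusted p = 0.670). Arc, a regulator of synaptic AMPA receptors, ranged from 268 to 839 CPM against 83.4 to 598 CPM (-0.78). Nr4a2, an induced nuclear receptor, ranged from 26.5 to 84.3 CPM against 19.0 to 51.6 CPM (-0.69, adjusted p = 0.622).

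Not all members were low: Homer1 (0.08), Nptx2 (0.06) and Egr3 (0.06) were close to 0. The mean over the list was 6.14 ± 0.42 log2 CPM (SD, n = 7) in Mrpl40 het and 5.73 ± 0.43 (n = 7) in libraries labelled double het, a gap of about 1 SD. Without libraries 5 and 6 the median was -0.28, and in hippocampus it was -0.09. Other clock and activity genes stood beside them: 14 of 19 circadian clock genes were below 0 (median -0.04, or -0.07 without libraries 5 and 6), including Ciart, a repressor of the clock, at -0.34 (adjusted p = 0.561) and Per1, which is on both lists, at -0.45. The sources used here do not give the time of day of dissection.

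Cholesterol synthesis, which uses cytosolic acetyl-CoA, had 20 of 23 members below 0 and a median of -0.09. An unadjusted p under 0.05 was found for 9 members (Insig1, Mvd, Fdps, Idi1, Msmo1, Lss, Dhcr7, Sqle and Sc5d), all lower, beside 3.76% of all genes, and none passed the adjusted test. Mvd, which makes isopentenyl diphosphate, had a lowest, median and highest level of 17.2, 20.2 and 21.2 CPM in Mrpl40 het and 16.1, 17.7 and 18.9 CPM in libraries labelled double het. The ranges overlapped, and the log2 difference was -0.17 ± 0.060 (SE, adjusted p = 0.519). Fdps, which joins isoprene units to farnesyl diphosphate, ranged from 31.4 to 39.7 CPM against 30.5 to 33.7 CPM (-0.15, adjusted p = 0.561).

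Other members of the cholesterol list lay closer to 0. Hmgcs1, an early enzyme of the pathway, had -0.07, and Srebf2, its transcription factor, had 0.01. The list median was -0.10 without libraries 5 and 6, -0.04 in hippocampus, where 18 of 23 members were below 0, and -0.04 for Slc25a1 het minus wild type in cortex, where 21 of 23 were below 0.

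Myelin is rich in cholesterol, so the markers of oligodendrocytes, the cells that make it, were set beside cholesterol synthesis. Of 14 measured markers 13 were below 0 with a median of -0.12, and all overlapped between the groups. Their summed level ranged from 1791 to 4206 CPM in Mrpl40 het and from 1992 to 3738 CPM in libraries labelled double het, and none of the 14 had an unadjusted p under 0.05. The median moved with single libraries: it was -0.24 without libraries 5 and 6 and -0.02 without Mrpl40 het library 2, the extremes of the alternatives run. In hippocampus it was 0.19 with all 14 above 0. The part of oligodendrocyte content in the cholesterol values was not tested, and in whole tissue fewer cells of a type and less RNA per cell cannot be told apart.

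Other users of cytosolic citrate showed small differences. Of 18 genes of cytosolic citrate use and fatty acid synthesis 13 were below 0 with a median of -0.04, and none had an unadjusted p under 0.05. Acly, which splits the exported citrate into acetyl-CoA and oxaloacetate, had 159 to 181 CPM in Mrpl40 het and 161 to 186 CPM in libraries labelled double het (0.00). Fasn, the fatty acid synthase, had -0.05, and Slc13a5, the plasma membrane citrate importer, had -0.13 (adjusted p = 0.735), or -0.08 without libraries 5 and 6. The other mitochondrial carriers of the SLC25 family (38 measured, median -0.01) and the citrate cycle enzymes (22 measured, median 0.01) had no member with an unadjusted p under 0.05.

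The mitochondrial ribosome and the respiratory chain, to which Mrpl40 relates, lay near 0. Of 49 large-subunit proteins 33 were above 0 with a median of 0.01, and of 29 small-subunit proteins 17 were above 0 with a median of 0.01. Mrpl35 had the smallest p of the large subunit, from 19.9 to 22.9 CPM in Mrpl40 het to 21.0 to 26.6 CPM in libraries labelled double het (0.14, adjusted p = 0.556), and Mrpl48 lay the other way (-0.09, adjusted p = 0.566). Nuclear-encoded complex I subunits had 19 of 36 above 0 and a median of 0.01.

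Mitochondrial transcription and translation factors had 25 of 34 above 0 with a median of 0.04, with Tsfm, a mitochondrial elongation factor, at 0.13 and Lrpprc, which stabilises mitochondrial mRNA, at 0.08, both at an adjusted p of 0.684 or more. All 37 rows of genes on mitochondrial DNA held 0 counts in every library, so the mRNAs that the mitochondrial ribosome translates were not measured. Nuclear copies of these genes, whose reads may come from mitochondrial RNA, had 6 of 7 members below 0 with a median of -0.08. Gm28439 among them ranged from 1015 to 1167 CPM in Mrpl40 het and from 935 to 1103 CPM in libraries labelled double het (-0.10, adjusted p = 0.655).

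No stress or immune list held a gene that passed. Heat shock proteins had 18 of 19 above 0 with a median of 0.07, and Chordc1, an HSP90 co-chaperone, had the smallest p (0.15, adjusted p = 0.622; 0.09 without libraries 5 and 6). Hspa4 had 0.10 and Hsp90aa1 had 0.00. The integrated and mitochondrial stress response had 19 of 25 above 0 with a median of 0.03 and no member at an unadjusted p under 0.05. Interferon response genes had 16 of 20 above 0 with a median of 0.12, among them Oasl2, an interferon-induced gene, which ranged from 2.14 to 3.24 CPM in Mrpl40 het and from 2.75 to 4.24 CPM in libraries labelled double het (0.34, adjusted p = 0.684).

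Complement and antigen presentation genes had 12 of 17 above 0 with a median of 0.09. C4b, a complement component, ranged from 5.59 to 8.70 CPM in Mrpl40 het and from 6.25 to 14.2 CPM in libraries labelled double het (0.55, adjusted p = 0.627). Microglia markers had 10 of 15 below 0 with a median of -0.03 and no member with an unadjusted p under 0.05. Among astrocyte markers (12 of 15 below 0, median -0.02) Gfap, the intermediate filament of reactive astrocytes, had 0.39 and S100b had -0.15, with adjusted p of 0.684 and 0.473.

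Synaptic lists differed in balance. Acetylcholine receptors and Ly6 modulators had 9 of 15 below 0 (median -0.04), and presynaptic vesicle release genes had 15 of 25 below 0 (median -0.005). GABA receptor and transport genes had 9 of 19 below 0. Glutamate receptor and scaffold genes had 15 of 30 on each side, and Gria3, an AMPA receptor subunit, had the smallest p among them, with 303 to 339 CPM in Mrpl40 het and 335 to 369 CPM in libraries labelled double het (0.13 ± 0.034, SE, adjusted p = 0.293). Slc6a11, a GABA transporter of astrocytes, had -0.15. Syn3, a synapsin of synaptic vesicles, had 0.26 (adjusted p = 0.502), Chrm4, a muscarinic receptor, had -0.32 (adjusted p = 0.566; -0.21 without libraries 5 and 6), and Cartpt, a neuropeptide precursor, had -0.47 (adjusted p = 0.549). The 33 measured neighbours of both targeted genes in the 22q11.2-matching region had a median of -0.01, with Dgcr6 at -0.13 (adjusted p = 0.562).

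Markers of tissue beside the cortex proper overlapped between the groups in their summed level. Fibroblast and meningeal markers had 11 of 12 above 0 with a median of 0.53, the highest of the 42 lists, and none of the 12 had an unadjusted p under 0.05. Their summed level was 31.6 to 96.7 CPM (median 47.9) in Mrpl40 het and 46.1 to 133 CPM (median 67.2) in libraries labelled double het, and no marker was at 0. Slc47a1, a transporter found in the meninges, had the highest log2 difference of the list (0.95). Lum, a collagen-binding proteoglycan, ranged from 0.771 to 1.52 CPM against 0.887 to 2.52 CPM. The list median was 0.72 without libraries 5 and 6, 0.31 without library 1 labelled double het, and 0.18 in hippocampus.

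Aldh1a2, a retinoic acid enzyme of the meninges, ranged from 1.17 to 5.20 CPM in Mrpl40 het and from 2.06 to 9.46 CPM in libraries labelled double het (0.73, adjusted p = 0.757). Stra6 and C4b stand beside these markers as genes with higher values, and the part of meningeal content in them was not tested. Choroid plexus markers had 4 of 6 measured members above 0 and a summed level of 4.13 to 13.2 CPM against 6.33 to 11.24 CPM. Cortical layer markers summed to 1399 to 1797 CPM against 1448 to 1788 CPM, and hippocampal markers, several of which cortex also expresses, to 157 to 183 CPM against 156 to 195 CPM.

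**Figure D4:**
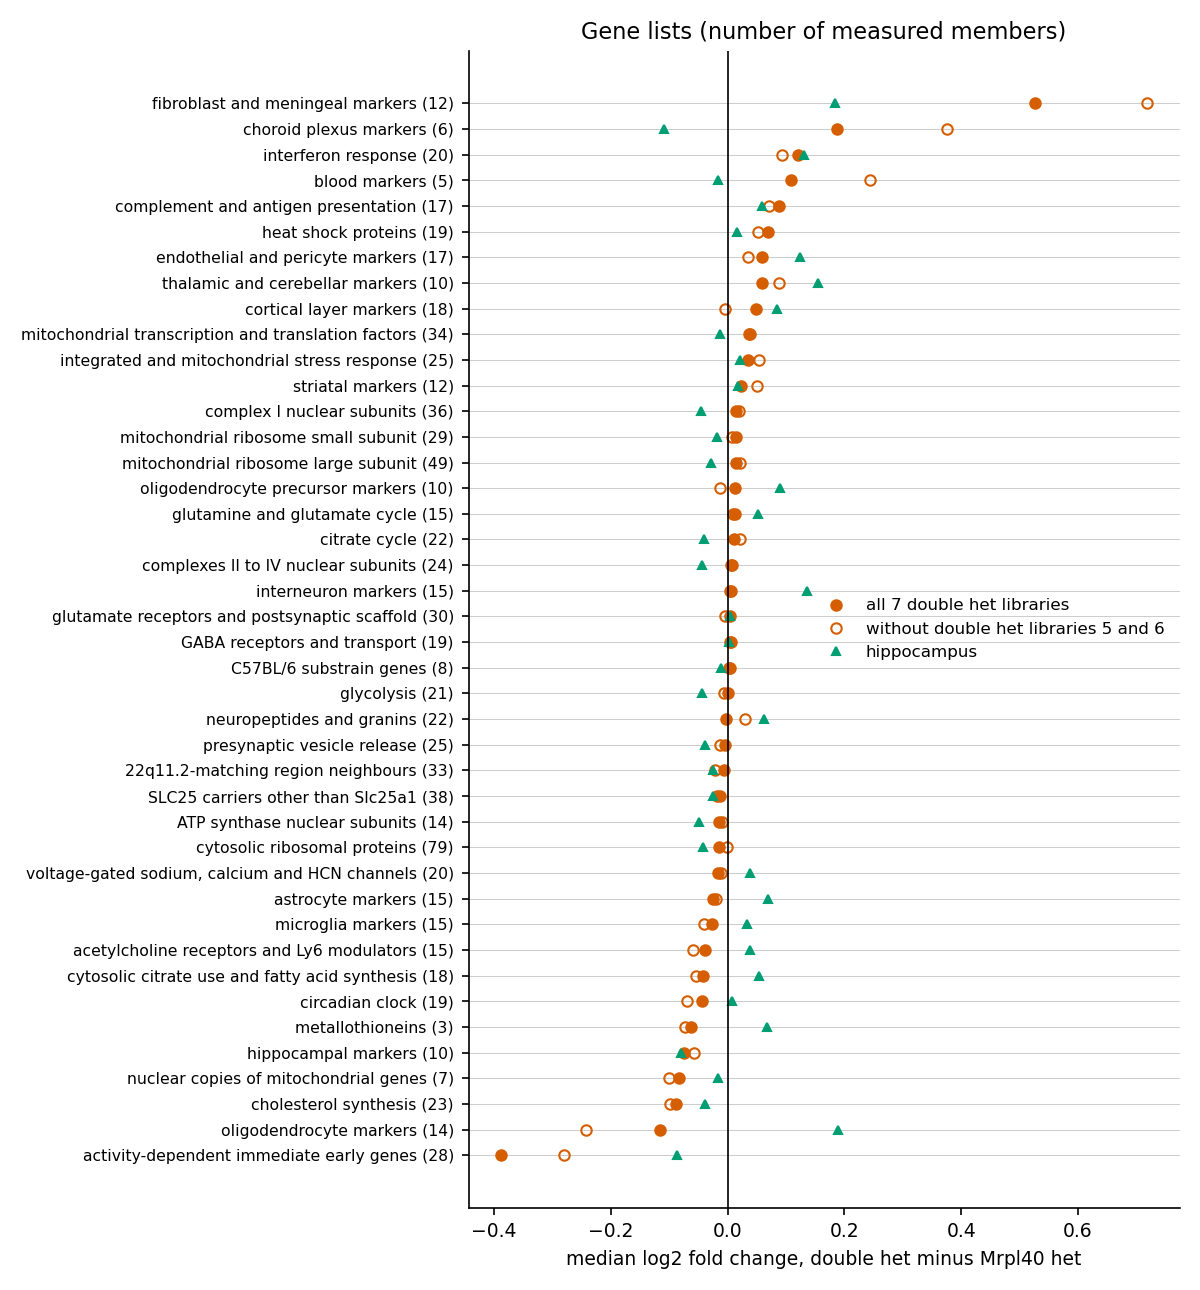
Median log2 fold change of libraries labelled double het minus Mrpl40 het for the 42 gene lists, with the number of measured members in brackets; filled points use all 7 libraries labelled double het, open points leave out libraries 5 and 6, and triangles show hippocampus. Most lists lie within 0.1 of 0, with fibroblast and meningeal markers (0.53) and immediate early genes (-0.39) at the ends.

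The differences between contrasts were tested across all genes. For the effect of the Slc25a1 allele on the Mrpl40 -/+ background minus that on the Mrpl40 +/+ background, 0 of 20394 genes passed with edgeR, 2 passed with DESeq2, and 1092 had an unadjusted edgeR p under 0.05 (5.35%). After Malat1, the smallest p belonged to Rbm45, an RNA-binding protein (difference 0.31, adjusted p = 0.224), Rchy1, a ubiquitin ligase (-0.21, adjusted p = 0.354), and Rpl30-ps9 (-0.68, adjusted p = 0.354). Slc25a1 het minus wild type, which shares no library with the main comparison, also had 0 genes past edgeR, 0 past DESeq2 and 646 at an unadjusted p under 0.05 (3.17%). Across 20394 genes the log2 fold changes of these separate contrasts had a Pearson r of -0.01, as a description, since genes are not independent replicates.

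For cortex minus hippocampus, 0 of 20493 genes passed with edgeR and 1183 had an unadjusted p under 0.05 (5.77%). Pcsk1n, a granin-like inhibitor of prohormone convertase, had the smallest p, with -0.03 in cortex, 0.30 in hippocampus and a difference of -0.33 ± 0.064 (SE, adjusted p = 0.291). Pld5 followed, with -0.58 in cortex, 0.41 in hippocampus and a difference of -0.97 (adjusted p = 0.430). Zfp36l2, which binds AU-rich mRNA, had a difference of -0.42, and Nwd1 and Igdcc4 had -0.27 each, with adjusted p of 0.430 to 0.449.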

How the data were processed

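The authors deposited 1 table of raw counts, with a row per gene and a column per library. FastQC, HISAT2, featureCounts and DESeq2 and the build mm39 (GRCm39) are named in the submitters' processing notes, without roles or versions. The deposited normalized values were not used. Gene positions, classes and the Malat1 transcript came from GENCODE vM21 (GRCm38), which differs from that build; promoters came from RefSeq (GRCm38.p6), so all printed coordinates are GRCm38.

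Groups followed the labels. All 30 cortex libraries were fitted together with edgeR 4.0.16 in R 4.3.3 (TMM, filterByExpr, robust quasi-likelihood test, false discovery rate 0.05), and the 2 genotypes were contrasted. The tissue difference had the animal as a block. Log2 CPM used a prior count of 2. The test was checked on simulated counts. Named genes were both targeted genes, those past the test, the 12 smallest p whose mean was 0 log2 CPM or more and whose symbol was not of the predicted kind (Gm, Rik), the 2 smallest p of each of 42 lists, and the 5 smallest p of each difference; others were chosen after their values were seen. The members and lists were chosen with earlier results of these data known. Alternatives changed the normalization, the filter, the samples fitted and the tool (DESeq2 1.42.0). The fits of Slc25a1 het minus wild type under them were added after seeing the data. Figures were drawn with matplotlib 3.10.9.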

Additional observations from a re-analysis of the deposited data

Results flagged for a closer look

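Of 112 sets of 7 libraries (a list mean or a named gene in 1 labelled genotype of cortex) 6 held a library far from the other 6, and chance gives about 1 in 20. Stra6 was low in library 4 labelled double het, at 2.76 CPM beside 4.31 CPM in the next lowest. In Mrpl40 het, library 2 had the highest mean of cytosolic ribosomal proteins (5.28 log2 CPM, next 5.13) and the lowest of glutamate receptors and postsynaptic scaffold (7.07 log2 CPM, next 7.16). Mrpl40 het library 7 had the highest mean of cortical layer markers (5.88 log2 CPM, next 5.68) and the lowest of endothelial and pericyte markers (3.80 log2 CPM, next 3.98). Mrpl40 het library 5 had the highest mean of the C57BL/6 substrain genes (5.54 log2 CPM, next 5.36).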

How the results depend on the processing

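For double het minus Mrpl40 het, 1 gene passed in the fit reported and with DESeq2 size factors, no filter, only the libraries of both genotypes, or length and GC content trends as offsets. The DESeq2 Wald test gave 13 genes, 2 higher and 11 lower, among them Malat1, Cracr2a, Pcnt, Pld5, Ctxn3 and Atf6. With the replicate number as a block, 2 genes passed, with Gm37728 added. The numbers were not treated as pairs, since no label says that a number marks a shared litter or day. The deviations of same-numbered libraries correlated over 0.1 in 5 of 7 pairs (range -0.36 to 0.47, median 0.30), and 4 of 7 correlated best with their own number. On these libraries 1546 genes had an unadjusted edgeR p under 0.05 without the block and 1719 with it. Whether same-numbered libraries share an origin was not tested. Leaving out 1 library gave 0 to 2 genes. The 0 calls came without library 4 or library 5 labelled double het, and the 2 calls without Mrpl40 het library 4 (AC130671.2 added), double het library 3 (Pld5 added) or double het library 6 (Ctxn3 added). For the difference by Mrpl40 background, the 0 genes became 1 with DESeq2 size factors, 1 with no filter and 2 with the DESeq2 Wald test (Malat1 in each, and Rbm45 in the last), and 0 to 1 when 1 library was left out. The 1 call, Malat1, came without wild-type library 6 or 7, Slc25a1 het library 1 or 3, or double het library 7. Of these, wild-type libraries 6 and 7 and Slc25a1 het library 3 had Slc25a1 against their label. Slc25a1 het library 4 and double het libraries 5 and 6 also did, and leaving out any 1 of them gave no call. Hippocampus, the tissue difference and Slc25a1 het minus wild type stayed at 0 genes under the alternatives run for them. Mrpl40, near 0 throughout, turned sign without Mrpl40 het libraries 1, 3 and 4 (-0.02, -0.01 and -0.02) and without double het libraries 3 and 4 (-0.01 and -0.02), and Mt2 turned without Mrpl40 het library 5. Over the fits that left out 1 library Mrpl40 ranged from -0.024 to 0.035 and Mt2 from -0.18 to 0.072. Of 2010 values of named genes under alternatives 1990 kept direction and side of the threshold. Only Malat1 of the 96 named genes had passed in the fit reported, so this count mostly describes genes that had not passed. Malat1 itself lost its call in 3 of 21 alternatives. Depth limits the values of genes with few counts, and the totals differed between the groups.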
